A study of Homo sapiens with 2 samples.

Results

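Of the 80 genes that the authors' deposited table lists as changed under the KEGG pathway Axon guidance, 49 are described here: those that remain once genes also listed under 10 other pathways (focal adhesion, matrix-receptor interaction, Wnt, Notch, TGF-beta and Hippo signalling, cytokine receptors, cell cycle, autophagy and mitophagy) and the 3 phosphoinositide 3-kinase genes PIK3CA, PIK3R1 and PIK3R3 are taken away. They are 49 of the 2238 changed genes of the table. All of them are guidance ligands, their receptors or effectors behind the receptors. The 10 listed as up were NTN1, EPHA4, EPHB2, UNC5B, PLXNA3, PLXNB3, L1CAM, ABLIM3, PLCG2 and RND1, and the other 39 were listed as down.

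The cells were SNU-449 (spelled Snu-449 or Snu449 in the labels), an established line of human hepatocellular carcinoma, grown in medium with serum. Total RNA was sequenced from 1 library labelled control and 1 library labelled as treated with ezetimibe for 24 h. Ezetimibe lowers blood cholesterol by binding NPC1L1, the transporter of sterol uptake in the gut. Its dose was not given in the sources used here, nor whether the control received vehicle. With 1 library per condition, no difference has a replicate check, and every statement is about these 2 libraries. For a changed gene the table holds its direction alone, so no level, size of change or value per library can be shown. The title of the comparison names ezetimibe first, and up is therefore taken to mean higher after the drug; nothing in the table can check this. A gene that is absent from the table may not have passed the authors' criteria, may not have been expressed, or may belong to no pathway.

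Axon guidance is the steering of growing nerve fibres by cues that attract or repel them. The main cue families are the semaphorins, read by plexins and neuropilins; the ephrins, read by Eph receptor tyrosine kinases; the netrins, read by DCC, neogenin and UNC5 receptors; and the Slits, read by Robo receptors. Inside the cell these receptors act on small GTPases and on actin. The same molecules are used outside the nervous system, in blood vessel growth, epithelial boundaries and the movement of tumour cells.

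The members were chosen from this same contrast, so their directions are given as a description, with no test. The authors called 80 of the 186 Axon guidance genes of their background changed (43.0%), against 2238 of all 8877 pathway genes (25.2%, of which 8.20% of the 8877 were up and 17.0% down). Among the members 10 of 49 were listed as up (20.4%, 95% interval 10.2 to 34.3, Clopper-Pearson, covering counting error among genes) and 39 as down. Among all changed genes 32.5% were up and 67.5% down, and the interval of the members includes that share. Of the 3 roles, ligands had the lowest share, with 1 of 17 up (5.88%, 0.149 to 28.7). Receptors held 6 of 16 up (37.5%, 15.2 to 64.6) and effectors 3 of 16 (18.8%, 4.05 to 45.6). The intervals of the 3 roles overlap, and a difference between roles was not tested. Sorted into 18 families, the members of 10 families were listed as down alone, those of 7 families in both directions, and the small GTPases, with the single member RND1, as up. Of the families listed as down alone, some have 1 member: Robo receptors, neuropilins, other ligands, polarity and G proteins, and tyrosine kinases and phosphatase. The plot of members by family shows the split by direction.

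**Figure D1:**
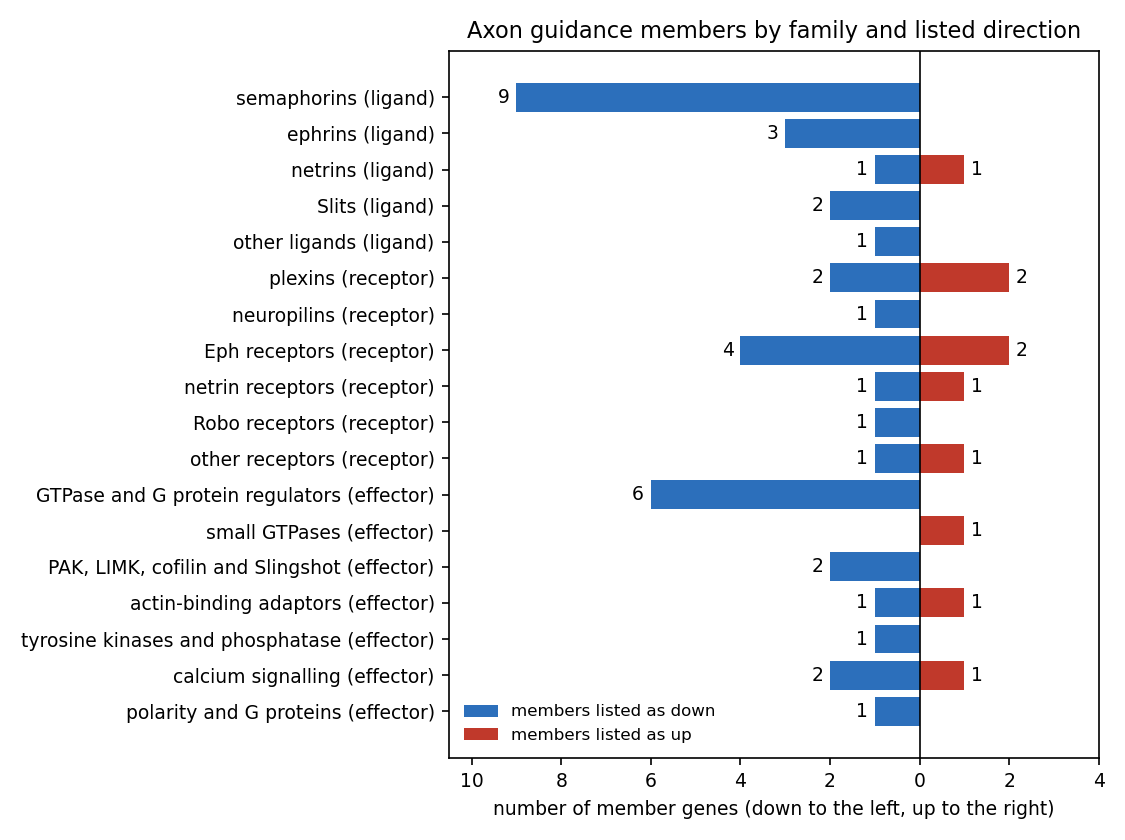
Number of member genes listed as down (blue, to the left) and as up (red, to the right) in each of 18 families, with the role of the family in brackets. Semaphorins have 9 members down and 0 up and the GTPase and G protein regulators 6 and 0, while plexins are split into 2 and 2.

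Semaphorins, secreted or membrane-bound cues that mostly repel, were the family with the most members. Of the 20 semaphorin genes in the pathway list used here, 9 were listed, all as down. Over that whole list 80 of 196 genes were listed, a like share, and of all changed genes 67.5% were down. Of the 7 genes of class 3, the secreted class, 4 were down. SEMA3A (ENSG00000075213; chromosome 7, 83955777 to 84492724, minus strand) causes growth cone collapse through neuropilin-1 and plexin A receptors. SEMA3C (ENSG00000075223; chromosome 7, 80742538 to 80922359, minus strand), SEMA3D (ENSG00000153993; chromosome 7, 84995553 to 85186855, minus strand) and SEMA3E (ENSG00000170381; chromosome 7, 83363238 to 83649113, minus strand) are its paralogs, and SEMA3E signals through plexin D1 without a neuropilin. SEMA3B, SEMA3F and SEMA3G, the other genes of the class, were not listed. Of the 6 genes of class 4, SEMA4D (ENSG00000187764; chromosome 9, 89360787 to 89498130, minus strand), the ligand of plexin B1, and SEMA4G (ENSG00000095539; chromosome 10, 100969518 to 100985871, plus strand) were down. Of the 4 transmembrane genes of class 6, 3 were down: SEMA6B (ENSG00000167680; chromosome 19, 4542593 to 4559808, minus strand), SEMA6C (ENSG00000143434; chromosome 1, 151131685 to 151146664, minus strand) and SEMA6D (ENSG00000137872; chromosome 15, 47184101 to 47774223, plus strand). SEMA6A, the semaphorins of class 5 and SEMA7A were not listed. All coordinates are those of GENCODE release 29 on GRCh38, matched by gene identifier; the build of the authors' own alignment is not stated in these sources.

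The 250 bases before and 50 bases after the start of a gene were taken as its promoter from RefSeq (GRCh38.p14), which had an entry for 39 of the 49 members. Of the class 3 semaphorins on chromosome 7, 3 have an entry. Their 150 bases before the start are printed 5′ to 3′ in the direction of the gene. They show how unlike each other the promoters of paralogs listed in the same direction are. Capitals mark a match to any of 6 short motifs on either strand: the GC box GGGCGG, the CCAAT box (named by its letters), the E-box CACGTG, the AP-1 site TGACTCA, the cyclic AMP element (CRE) with the letters TGACGTCA, and the TATA box with the letters TATAAA. No motif in this set contains another.
SEMA3C (chr7:80922390-80922539, minus strand): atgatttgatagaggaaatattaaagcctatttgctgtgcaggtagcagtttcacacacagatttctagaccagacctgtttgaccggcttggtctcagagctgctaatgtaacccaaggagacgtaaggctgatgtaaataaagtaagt
SEMA3E (chr7:83649140-83649289, minus strand): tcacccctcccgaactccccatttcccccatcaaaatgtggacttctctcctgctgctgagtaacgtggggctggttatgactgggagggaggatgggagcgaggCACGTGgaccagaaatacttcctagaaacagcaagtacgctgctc
SEMA3D (chr7:85187057-85187206, minus strand): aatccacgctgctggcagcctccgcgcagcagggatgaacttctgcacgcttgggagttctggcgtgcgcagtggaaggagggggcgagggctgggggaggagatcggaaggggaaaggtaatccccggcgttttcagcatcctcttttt
The whole promoter window of SEMA3C had a GC content of 36.0%, that of SEMA3E 47.3% and that of SEMA3D 57.0%. In the printed stretches a single match is found, the E-box of SEMA3E. SEMA3A has no entry in the promoter table.

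Ephrins are ligands anchored in the membrane of the neighbouring cell. Of 8 ephrin genes 3 were listed, all as down. EFNA5 (ENSG00000184349; chromosome 5, 107376889 to 107670895, minus strand) is held by a lipid anchor and binds EphA receptors. EFNB2 (ENSG00000125266; chromosome 13, 106489731 to 106535662, minus strand), known as a marker of arteries, and EFNB3 (ENSG00000108947; chromosome 17, 7705202 to 7711378, plus strand) cross the membrane and bind EphB receptors and EphA4.

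Netrins and Slits are secreted cues. NTN1 (ENSG00000065320; chromosome 17, 9021542 to 9244000, plus strand), netrin-1, attracts through DCC and repels through UNC5 receptors, and was the only ligand among the members listed as up. Its relative NTN4 (ENSG00000074527; chromosome 12, 95657807 to 95791152, minus strand), which also acts in basement membranes, was down. SLIT2 (ENSG00000145147; chromosome 4, 20253260 to 20620561, plus strand) and SLIT3 (ENSG00000184347; chromosome 5, 168661733 to 169301129, minus strand) were down, and SLIT1 was not listed. SHH (ENSG00000164690; chromosome 7, 155799986 to 155812273, minus strand), sonic hedgehog, a morphogen that also guides axons, was down.

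The receptor of the Slits, ROBO1 (ENSG00000169855; chromosome 3, 78597240 to 79767815, minus strand), was listed as down together with both of them, and it was the member with the longest gene. The promoters of these 3 genes, which belong to a single ligand and receptor system, are printed for comparison in the same way.
SLIT2 (chr4:20251755-20251904, plus strand): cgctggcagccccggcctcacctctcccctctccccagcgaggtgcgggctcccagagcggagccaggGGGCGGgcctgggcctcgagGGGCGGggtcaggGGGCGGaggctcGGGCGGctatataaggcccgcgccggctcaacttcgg
SLIT3 (chr5:169301140-169301289, minus strand): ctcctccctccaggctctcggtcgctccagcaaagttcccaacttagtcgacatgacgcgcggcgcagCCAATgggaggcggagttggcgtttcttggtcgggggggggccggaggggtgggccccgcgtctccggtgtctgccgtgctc
ROBO1 (chr3:79767999-79768148, minus strand): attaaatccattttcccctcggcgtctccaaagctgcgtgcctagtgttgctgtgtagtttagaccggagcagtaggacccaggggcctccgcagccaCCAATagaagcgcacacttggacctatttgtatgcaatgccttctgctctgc
SLIT2 holds a row of 4 GC boxes in the printed stretch, whereas SLIT3 and ROBO1 each hold a CCAAT box there. The whole windows had a GC content of 74.3% for SLIT2, 64.7% for SLIT3 and 45.3% for ROBO1. The RefSeq start of SLIT2 lies upstream of the start of the GENCODE gene.

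Plexins, the semaphorin receptors, were split. PLXNA3 (ENSG00000130827; chromosome X, 154458281 to 154477779, plus strand) and PLXNB3 (ENSG00000198753; chromosome X, 153764196 to 153779346, plus strand) were listed as up. PLXNB1 (ENSG00000164050; chromosome 3, 48403854 to 48430051, minus strand), a receptor of SEMA4D, and PLXNB2 (ENSG00000196576; chromosome 22, 50274979 to 50307627, minus strand) were down. All 3 plexins of class B were thus listed, 1 as up and 2 as down. The co-receptor of the secreted semaphorins, NRP1 (ENSG00000099250; chromosome 10, 33177492 to 33336262, minus strand), was down, and NRP2 was not listed.

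Eph receptors were split as well. EPHA4 (ENSG00000116106; chromosome 2, 221418027 to 221574202, minus strand), which binds ephrins of both classes, and EPHB2 (ENSG00000133216; chromosome 1, 22710839 to 22921500, plus strand) were listed as up. EPHA2 (ENSG00000142627; chromosome 1, 16124337 to 16156087, minus strand), an Eph receptor of epithelia that is often studied in carcinoma, EPHA5 (ENSG00000145242; chromosome 4, 65319563 to 65670495, minus strand), EPHA6 (ENSG00000080224; chromosome 3, 96814581 to 97752460, plus strand) and EPHA7 (ENSG00000135333; chromosome 6, 93240020 to 93419547, minus strand) were down. Of 9 EphA genes in the list 5 were listed and of 5 EphB genes 1. The promoters of the 2 receptors listed as up and of EPHA7, listed as down, are printed beside each other.
EPHA4, up (chr2:221574203-221574352, minus strand): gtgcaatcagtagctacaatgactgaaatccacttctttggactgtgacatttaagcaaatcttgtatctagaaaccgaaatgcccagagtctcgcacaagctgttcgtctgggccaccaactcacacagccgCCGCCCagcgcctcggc
EPHB2, up (chr1:22710688-22710837, plus strand): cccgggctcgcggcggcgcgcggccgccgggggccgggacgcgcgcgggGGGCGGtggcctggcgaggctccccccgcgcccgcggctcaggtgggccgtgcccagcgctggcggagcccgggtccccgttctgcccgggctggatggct
EPHA7, down (chr6:93419560-93419709, minus strand): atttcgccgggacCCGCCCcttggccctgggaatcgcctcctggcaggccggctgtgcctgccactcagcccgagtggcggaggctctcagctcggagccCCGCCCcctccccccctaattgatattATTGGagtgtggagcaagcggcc
All 3 hold at least 1 GC box, and EPHA7 holds a CCAAT box too. GC content of the whole window was 43.0% in EPHA4, 83.0% in EPHB2 and 68.3% in EPHA7, so the receptor listed as down lay between the others.

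Among the other receptors, the netrin receptor UNC5B (ENSG00000107731; chromosome 10, 71212570 to 71302864, plus strand), which is also a dependence receptor of vessels and epithelia, was listed as up. Its paralog UNC5C (ENSG00000182168; chromosome 4, 95162504 to 95549206, minus strand) was down. The cell adhesion molecule L1CAM (ENSG00000198910; chromosome X, 153861514 to 153886174, minus strand), which promotes axon growth and is also found in tumours, was up. The hedgehog receptor PTCH1 (ENSG00000185920; chromosome 9, 95442980 to 95517057, minus strand) was down.

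The listed regulators of GTPases and G proteins were all down. All 3 SRGAP genes, whose proteins bind the inner part of Robo receptors and switch off small GTPases, were down: SRGAP1 (ENSG00000196935; chromosome 12, 63844293 to 64162221, plus strand), SRGAP2 (ENSG00000266028; chromosome 1, 206203345 to 206464443, plus strand) and SRGAP3 (ENSG00000196220; chromosome 3, 8980591 to 9363053, minus strand). SRGAP2 has 3 near-identical copies in the annotation, SRGAP2B, SRGAP2C and SRGAP2D, so its call is uncertain. ARHGEF12 (ENSG00000196914; chromosome 11, 120336914 to 120489936, plus strand), a guanine nucleotide exchange factor that binds plexins of class B, was down. RASA1 (ENSG00000145715; chromosome 5, 87267888 to 87391931, plus strand), the Ras GTPase activator that acts downstream of EphB receptors, and RGS3 (ENSG00000138835; chromosome 9, 113444731 to 113597743, plus strand), a regulator of G protein signalling that binds ephrin-B, were down too. With these, all 6 listed genes of the group of GTPase and G protein regulators, out of 10 in the list, were down. Of all 16 effector members 13 were down, and of all changed genes 67.5%.

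Effectors on actin and microtubules were mixed. CFL2 (ENSG00000165410; chromosome 14, 34706769 to 34714823, minus strand), a cofilin that severs actin filaments, and SSH2 (ENSG00000141298; chromosome 17, 29625938 to 29930276, minus strand), a Slingshot phosphatase that activates cofilins, were down. DPYSL2 (ENSG00000092964; chromosome 8, 26514022 to 26658178, plus strand), also called CRMP2, which binds tubulin and carries semaphorin 3A signals, was down. The actin-binding protein ABLIM3 (ENSG00000173210; chromosome 5, 149141483 to 149260542, plus strand) was up, and so was RND1 (ENSG00000172602; chromosome 12, 48857145 to 48865898, minus strand), an atypical small GTPase that binds plexins.

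Of the calcium signalling members, the phospholipase PLCG2 (ENSG00000197943; chromosome 16, 81739097 to 81962693, plus strand) was listed as up and the cation channel TRPC1 (ENSG00000144935; chromosome 3, 142724074 to 142807888, plus strand) as down. GNAI1 (ENSG00000127955; chromosome 7, 79768028 to 80226181, plus strand), an inhibitory G protein subunit, and PTPN11 (ENSG00000179295; chromosome 12, 112418351 to 112509913, plus strand), the phosphatase SHP2, were down. These last members have the broadest annotation of the 49: PLCG2 is listed under 35 pathways of the table, GNAI1 under 39 and PTPN11 under 15.

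Known ligand and receptor partners were compared after their directions had been seen, over a chosen list of 19 pairs of members. The list does not hold every possible pair: PLXNA3, listed as up, is in none, though SEMA3A acts through plexin A receptors. In 12 pairs both genes were listed as down, in 1 pair both as up and in 6 pairs in opposite directions. Taken singly, 16 of 17 ligand members and 10 of 16 receptor members were down. The count of pairs that were down on both sides depends on these shares and was not tested against them. The pairs that were down on both sides include SLIT2 and SLIT3 with ROBO1, SHH with PTCH1, SEMA3A, SEMA3C and SEMA3D with NRP1, SEMA4D with PLXNB1 and PLXNB2, and EFNA5 with EPHA2, EPHA5, EPHA6 and EPHA7. The pair that was up on both sides was NTN1 with UNC5B. The opposed pairs were NTN1 with UNC5C, EFNA5 with EPHA4, and EFNB2 and EFNB3 with EPHB2 and EPHA4. All 3 listed ephrins were down, so in each of the 5 opposed ephrin pairs the receptor was necessarily the gene listed as up. Pairs share genes (EFNA5 is in 5 of them), so they are not separate observations. RNA from a culture of cells does not show which protein is on which cell.

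Of the 49 members, 35 are listed under Axon guidance alone. The choice of members sets this share, since each of the 31 genes taken away is under more than 1 pathway: of the whole Axon guidance row 35 of 80 genes (43.8%) are under that pathway alone, beside 893 of all 2238 changed genes (39.9%) that are under a single pathway. Of the 35, 8 were up (22.9%, 10.4 to 40.1). Of the 858 other changed genes under a single pathway, 312 were up (36.4%, 33.1 to 39.7). Outside Axon guidance the members met most often under Ras signaling, with EFNA5, EPHA2, PLCG2, PTPN11 and RASA1, and under Proteoglycans in cancer and Pathways in cancer, with 5 members each. SHH and PTCH1 were the members under Hedgehog signaling, a pathway with 2 genes up and 16 down in the authors' deposited table. CDON, a hedgehog co-receptor on the pathway list used here, is not in the authors' Axon guidance row but was listed under Hedgehog signaling as up. Under Cell adhesion molecules, where L1CAM is the only member, 11 of 38 genes were up (28.9%, 15.4 to 45.9).

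Direction went with base composition over all changed genes, and the members are given here against it. The GC content of the longest transcript had a median of 55.2% in all changed genes listed as up and 43.6% in those listed as down. Among the members the medians were 56.5% for the 10 up and 46.0% for the 39 down. Members with a GC content below 47.0%, the median of all changed genes, were down in 21 of 22 cases, the exception being EPHA4 at 44.8%; 12.3% of all changed genes in that range were up. Members at or above that median were up in 9 of 27 cases (33.3%, 16.5 to 54.0), where 52.7% of all changed genes were up (49.8 to 55.7). By role, 1 of 10 ligands, 5 of 10 receptors and 3 of 7 effectors in the GC-rich range were up. The ligands listed as down in that range include SEMA6B at 67.7%, SEMA6C at 64.1%, EFNB3 at 59.0% and SEMA4G at 58.8%. In the highest of 10 equal classes of GC content 63.4% of all changed genes were up, as were 2 of 6 members there. The part of base composition in the directions of the members was not tested.

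**Figure D2:**
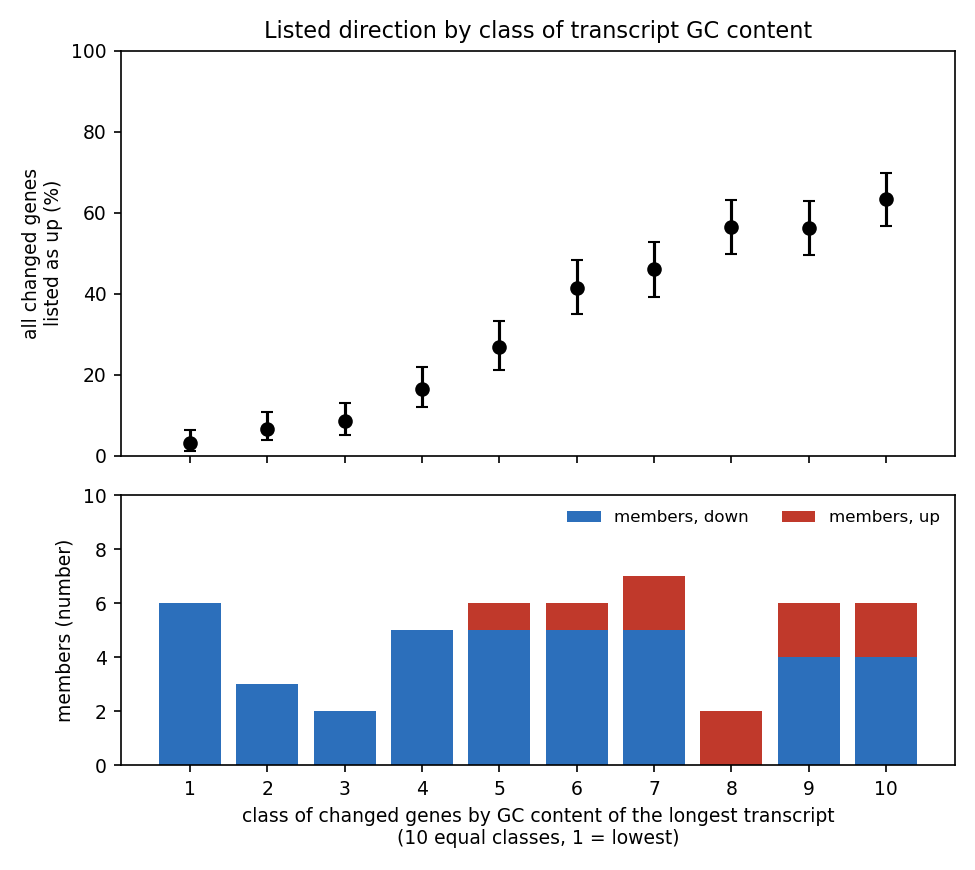
Upper panel: percent of all changed genes listed as up in 10 equal classes of GC content of the longest transcript, with exact 95% intervals. Lower panel: number of members down (blue) and up (red) in the same classes. All 16 members in the lowest 4 classes are down, and members listed as down are found in each class but the eighth.

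In 5 of the 7 families that hold both directions, the member listed as up was richer in GC than those listed as down. Each of these 5 families has 1 member up and 1 or 2 down, so these are comparisons of single genes. L1CAM and PTCH1 come from the mixed group of other receptors. ABLIM3 and DPYSL2, and PLCG2 and TRPC1, were likewise grouped by function and are not paralogs. NTN1 had 62.5% and NTN4 47.9%, UNC5B 60.2% and UNC5C 44.3%, ABLIM3 53.4% and DPYSL2 50.9%, and L1CAM 60.0% and PTCH1 48.7%. PLCG2 had 47.3% against 38.9% for TRPC1. Among Eph receptors and plexins the ranges overlapped: EPHA2, listed as down, had 60.3%, above EPHA4 and EPHB2, and PLXNB1 (62.3%) and PLXNB2 (63.1%) lay between PLXNA3 (57.4%) and PLXNB3 (65.1%).

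The members are long genes. Their median span was 153013 bases, against 36616 for all changed genes. The members listed as up had a median span of 104678 bases and those listed as down 153023. Of the members that span 100000 bases or more, 5 of 30 were up (16.7%, 5.64 to 34.7), beside 13.5% of all changed genes of that span. Of the shorter members 5 of 19 were up (26.3%, 9.15 to 51.2), beside 38.3% of all changed genes. The longest were ROBO1 at 1170576 bases and EPHA6 at 937880, both down. The shortest were EFNB3 at 6177 bases and CFL2 at 8055, both down, and RND1 at 8754, up. In the plot of GC content against span, 30 of the 49 members lie at 100000 bases or above, beside 518 of 2237 changed genes.

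**Figure D3:**
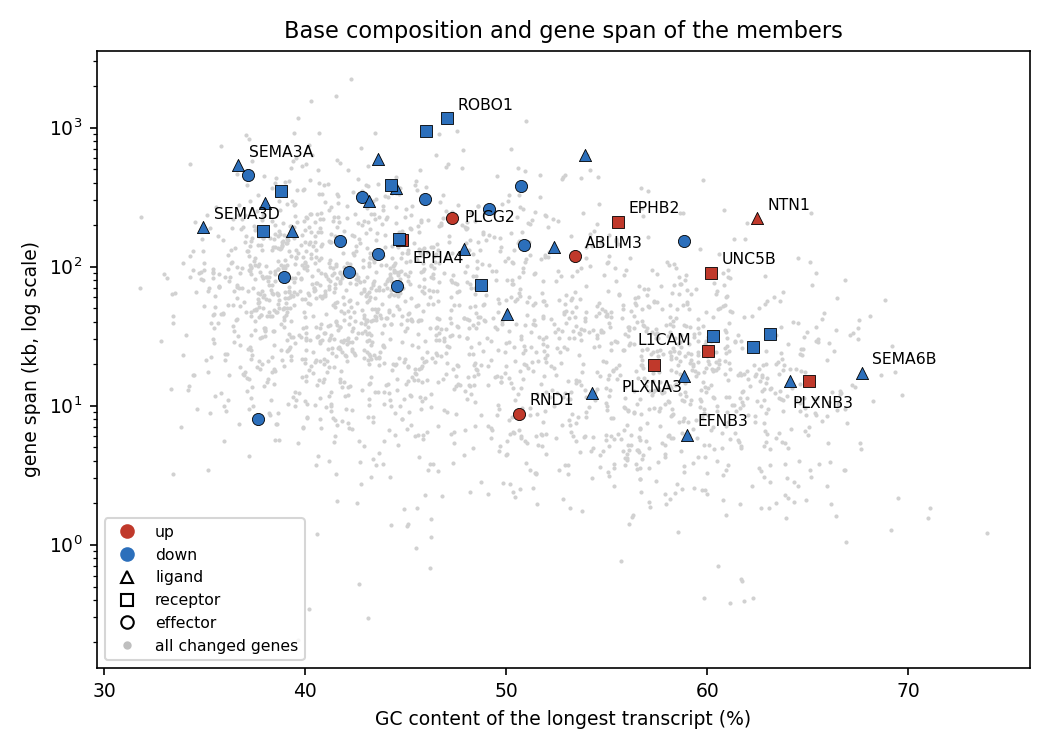
GC content of the longest transcript (percent) against gene span (kb, log scale) for all changed genes (grey) and the members, coloured by direction (red up, blue down) and shaped by role. Members listed as down cover the whole GC range, from SEMA3D at 34.9% to SEMA6B at 67.7%, and members listed as up lie between EPHA4 at 44.8% and PLXNB3 at 65.1%.

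Some members lie next to each other on a chromosome, and in 3 of the 4 such stretches they shared a direction. PLXNB3, L1CAM and PLXNA3 lie within 714 kb of each other on chromosome X, and they are all of the 3 members on that chromosome and 3 of the 6 receptors listed as up. Of the 6 other changed genes within 1 Mb of them, 5 were up (NSDHL, SSR4, IRAK1, EMD and RPL10) and F8 was down. Over the whole of chromosome X, 23 of 85 changed genes were up (27.1%, 18.0 to 37.8). Listed genes around these 3 members had a median GC content of 60.0%. Without these 3 genes, 3 of 13 receptors were up (23.1%, 5.04 to 53.8), in place of 37.5%.

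On chromosome 7, SEMA3E, SEMA3A and SEMA3D lie within 1823618 bases of each other, and SEMA3C lies beside GNAI1 in a stretch of 1154332 bases at lower coordinates. All 5 were listed as down. No other changed gene of the table lies within 1 Mb of either stretch. These genes are poor in GC, from 34.9% to 39.4%, in a range where few changed genes were up. SHH, far away on the same chromosome, was down too, so that 6 of 6 members on chromosome 7 were down, beside 76 of 105 changed genes there. On chromosome 17, EFNB3 and NTN1 lie within 1538799 bases of each other and were listed in opposite directions, among 14 other changed genes of which 7 were up and 7 down.

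**Figure D4:**
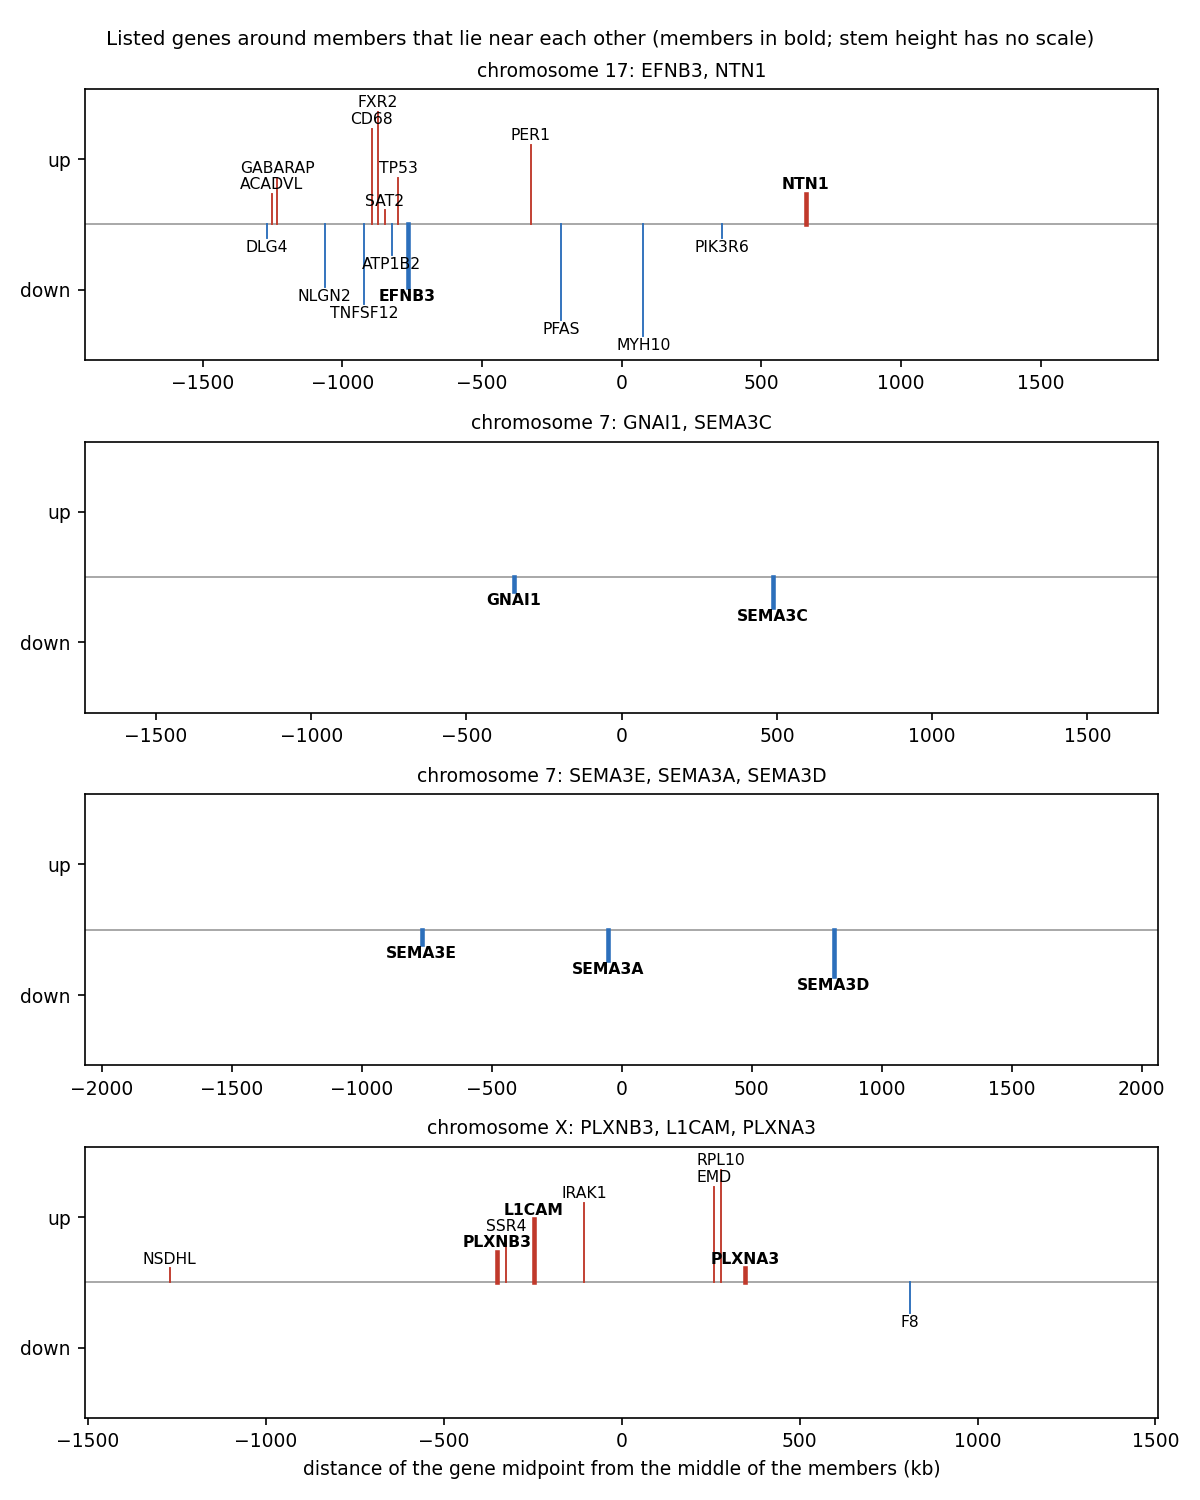
Changed genes around members that lie within 2 Mb of each other, by the distance of the gene midpoint from the middle of the members (kb), with a window of 1 Mb on each side. Stems upwards (red) are genes listed as up and stems downwards (blue) genes listed as down; stem height has no scale, and members are in bold. Both stretches of chromosome 7 hold members listed as down alone, and 8 of the 9 genes shown on chromosome X are up.

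Promoters of members listed as up and as down had a like GC content. Over the 39 promoters of members the median GC content was 64.3%, with 64.7% for the 7 listed as up and 63.8% for the 32 listed as down. A GC box was found in all 7 of the former and in 22 of 32 of the latter (68.8%), beside 72.3% of promoters of all changed genes listed as up, 67.3% of those listed as down and 44.6% of all 27305 promoters in the table. A CCAAT box was found in 12 of 39 member promoters (30.8%), beside 37.5% of changed-gene promoters and 35.7% of all promoters. An E-box was found in 5 members, CFL2, GNAI1, SEMA3E, SEMA4D and SEMA6D, all listed as down (12.8% of the 39). Of changed-gene promoters 10.7% hold it, with 13.8% of those listed as up and 9.2% of those listed as down, and of all promoters 7.43%. EPHA2 was the member with a CRE, which 2.98% of changed-gene promoters and 1.98% of all promoters hold. EFNB2 and SRGAP3 were those with a TATA box, held by 7.28% of changed-gene promoters and 12.0% of all. No member promoter holds an AP-1 site, which 3.78% of changed-gene promoters and 4.92% of all promoters hold. A CpG ratio above 0.6 (observed over expected CG pairs) was found in 25 of 39 member promoters (64.1%), beside 78.7% of the 1745 promoters of changed genes and 48.9% of all promoters. These are matches of letters in 1 window per gene and show no binding.

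The 31 Axon guidance genes outside the choice had 6 up and 25 down (19.4%, 7.45 to 37.5), close to the members. Among them were the ligands CXCL12, listed as up, and WNT5A and GDF7, listed as down. Of their receptors, CXCR4, which binds CXCL12, was up, and the netrin receptor NEO1, the Wnt receptors RYK and FZD3, the receptors BMPR2 and MET and the integrin ITGB1 were down. Their effectors were 4 up (FYN, MYL5, PPP3CC and PRKCZ) and 17 down. Among those down were the kinases ROCK1 and ROCK2 and the polarity genes PARD3, PARD6A, PARD6B and PARD6G. Of the 196 guidance genes on the list used here, 80 were in the Axon guidance row.

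Other cell types were looked for among the changed genes through 24 markers, of which 18 were not listed. Of the 5 neuron markers (TUBB3, MAP2, RBFOX3, SYP and STMN2) 0 were listed, and 0 of the 4 endothelial markers. A marker that belongs to no pathway could not be listed, so an absent marker tells nothing about its cell type. Listed as down were FGB of the hepatocyte set, SOX9 of the cholangiocyte set and 3 of 4 fibroblast markers (ACTA2, COL1A1 and COL1A2); CD68, of the immune set, was up. Since levels are not in the table, the labelled cell line cannot be checked against its markers, and fewer cells of a type cannot be told apart from less RNA per cell.

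Exons of 21 of the 49 members share bases with another annotated gene, in 19 of them with a gene on the other strand. None of those other genes is itself among the changed genes of the table. A gene that belongs to no pathway could not be listed, so this does not show that the overlapping genes were unchanged. Whether the authors' counting used strand was not given in the sources used here, and for these members reads of both genes may have been counted together. They are 7 of the 10 members listed as up and 14 of the 39 listed as down. The share with such an overlap over all changed genes was not counted, so no difference between the directions is drawn from this. Among the receptors listed as up they include L1CAM, PLXNA3, PLXNB3, EPHA4 and EPHB2. Among the genes listed as down they include SLIT3, SRGAP1, SRGAP2 and SRGAP3.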

How the data were processed

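The submitters' processing notes name StringTie 1.3.0 and HISAT2 2.0.4. Settings, genome build, annotation and sequencing depth were not given in the sources used here. A table deposited by the authors and used here is named for edgeR and KEGG enrichment; it lists the changed genes of 327 pathways with their direction. How the authors called genes from 1 library per condition is not given. The authors' enrichment ratio (rich factor), p-values and q-values in the deposited table are per pathway and were not used here.

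Genes were read from the lists, and 0 genes had both directions. The members, families and pathway list were chosen with earlier results of these data known. Of the members, 1 is counted but not reported by name here. Shares carry exact Clopper-Pearson 95% intervals, which cover counting among genes, not the spread between cultures. Span, position, transcript length and GC content of the longest transcript came from GENCODE release 29 for 2237 of the 2238 genes. Neighbouring members lie within 2 Mb. The parsing and intervals were tested on simulated data. Alternatives changed which genes count as members or background, or the transcript used. The tools were pandas 2.3.3, SciPy 1.17.1, NumPy 2.4.6 and Matplotlib 3.10.9 under Python 3.11.15.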

Additional observations from a re-analysis of the deposited data

How the results depend on the processing

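The share of members listed as up was 20.4% and lay between 17.1% and 20.5% under the alternatives tried: with no subtraction (16 of 80 genes), without genes under more than 20 pathways (19.1% of 47), without members under the MAPK, Ras, Rap1, actin cytoskeleton or cell adhesion pathways (20.5% of 39), and without the neighbouring members on chromosomes 7 and X (17.1% of 41), the last chosen after seeing the data. Ligands moved from 5.88% to at most 10.0%, receptors from 37.5% to 30.4% with no subtraction and to 23.1% without the 3 neighbours on chromosome X (also chosen after seeing the data), and effectors from 18.8% to as low as 14.3%, each within the interval of the main value. Of all changed genes 32.5% were up, and 32.4% to 33.0% under the alternatives tried for that share. The median GC content of the members was 47.9% by the longest transcript and 49.5% by the mean over transcripts. No paired analysis was possible because each condition has 1 library. Depth is unknown from this table.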
